A study of Rattus norvegicus with 15 samples.

Results

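The genes described here are 36 genes of the lysosome and of the general form of the vacuolar proton pump (V-ATPase), listed by name: 14 pump subunits of the V0 and V1 sectors, 2 accessory subunits of the pump, 8 cathepsins, 4 glycosidases, 6 genes of lipid handling and of the lysosomal membrane, and 2 regulators. Of these, 34 were found by name among the 30454 genes of the deposited tables, and Atp6v0a2 and Atp6v1f were not analysed here. The list was set by gene name, with earlier results of these data known. In the 15 libraries, the 34 genes together held 0.478% (P 2) to 0.951% (PJ 1) of the summed FPKM (fragments per kilobase of transcript, scaled to library size).

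Polyadenylated RNA of whole femurs of female SD rats was sequenced in 5 groups of 3 libraries. All rats were 8 weeks old at the start, recovered for 6 weeks after surgery and were then treated for 8 weeks. PJ rats were ovariectomised on both sides and received the combined extract of Juglans regia L. (walnut) and Psoralea corylifolia Linn. at 4.0 g per kg per day by gavage. P rats were ovariectomised and received the Psoralea corylifolia extract alone at 2.4 g per kg per day, and J rats were ovariectomised and received the Juglans regia extract alone at 1.6 g per kg per day. OVX rats were ovariectomised and received saline, and Sham rats kept their ovaries, lost a like amount of fat tissue and also received saline. The study's title names bone loss after ovariectomy as the condition the extracts were given for. The labels do not say that each library is a separate rat, so the p-values speak of the variation among the libraries at hand, part of which may be technical.

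Lysosomes are acid compartments in which hydrolases break down proteins, glycans and lipids taken up from outside or delivered by autophagy. The V-ATPase drives their acidity: its V1 sector in the cytosol splits ATP and its V0 sector in the membrane carries protons. Most cells use the general subunits, whereas bone-resorbing osteoclasts also place pumps with the isoforms Tcirg1 (subunit a3) and Atp6v0d2 (subunit d2) in the membrane that faces bone. The transcription factor TFEB activates many lysosomal genes through a promoter element called CLEAR, whose core is CACGTG.

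RefSeq promoters (assembly GRCr8, 250 bases before to 50 bases after the start of a gene) matched 30 of the 36 listed genes. CACGTG, which reads the same on both strands, was present in 6 of these 30 (20%), against 2148 of 33469 (6.42%) of all promoters in the table. With 1 more base, TCACGTG on either strand, the counts were the same 6 of 30, against 3.2% of all promoters. A match is a description of letters and not a binding site. The promoters of Lamp1 (chr16:83075014-83075313, minus strand), which held the most matches with 5, and of Ctsd (chr1:206968772-206969071, minus strand), with 2, are shown whole because both genes are described by library further on. Each is written 5′ to 3′ with CACGTG in capitals:
Lamp1: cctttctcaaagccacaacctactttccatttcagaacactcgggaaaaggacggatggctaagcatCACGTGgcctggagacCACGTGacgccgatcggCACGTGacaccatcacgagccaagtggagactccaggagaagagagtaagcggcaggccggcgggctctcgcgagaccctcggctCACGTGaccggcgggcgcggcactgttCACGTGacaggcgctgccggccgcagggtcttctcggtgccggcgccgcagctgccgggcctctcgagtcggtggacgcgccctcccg
Ctsd: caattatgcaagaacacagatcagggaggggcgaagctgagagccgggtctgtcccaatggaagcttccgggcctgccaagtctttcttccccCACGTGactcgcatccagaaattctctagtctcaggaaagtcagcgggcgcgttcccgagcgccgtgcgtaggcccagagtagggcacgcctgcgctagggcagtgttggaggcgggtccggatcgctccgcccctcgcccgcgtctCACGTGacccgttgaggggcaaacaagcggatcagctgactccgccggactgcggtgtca

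The other 4 promoters with the motif belonged to Atp6v0d1 and Atp6v0e1 of the V0 sector, Glb1 and Mcoln1. Windows of 26 bases around their matches are shown to compare the flanks, and the capitals again mark CACGTG:
Atp6v0d1: ccattgtggtCACGTGagatgcagtg
Atp6v0e1: gcgcgccggtCACGTGagcctctgtt
Glb1: gctccggagtCACGTGgcctgcagag
Mcoln1, first match: tcaagcttgtCACGTGttcgacccag
Mcoln1, second match: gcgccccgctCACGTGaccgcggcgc

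Of the genes with a match, Lamp1 fell in OVX against Sham, Lamp1 and Glb1 rose in PJ and P against OVX, and Atp6v0e1 rose in PJ. The rises of Lamp1, of Glb1 in P and of Atp6v0e1 did not hold when certain single libraries were left out. Ctsd and Atp6v0d1 passed in no comparison, and Mcoln1 was too low to test. Their values stand with each comparison.

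Library totals recovered from the deposited values were 34.3 to 61.0 in units of 1000000 reads, with 19435 to 20845 genes above 0. Mitochondrial genes held 11.2% (P 3) to 35.9% (P 2) of a library's FPKM and globin genes 0.084% (Sham 2) to 8.25% (OVX 1). The next highest mitochondrial share was 24.5% in J 2. The part of the mitochondrial share in the low values of other genes in P 2 was not tested. Across genes, 4 libraries correlated best with a library of another group (Pearson): PJ 3 with P 1 (0.944), P 2 with Sham 1 (0.903), P 3 with PJ 1 (0.967) and Sham 3 with PJ 2 (0.946). For P 2, Sham 1 was the closest library and 0.903 the lowest of the 15 best correlations. Whether a library was exchanged or came from another piece of bone cannot be told from the files. In Sham 3, the summed FPKM of 12 osteoclast markers was 2428, against 141 in Sham 1 and 135 in Sham 2. Counts of calls are given with all libraries and, where they move, without Sham 3 or without Sham 3, P 2 and PJ 3 together. P 3 was kept in both. P 2 and PJ 3 had the lowest sums over the 34 genes in their groups (2495 and 3250 FPKM). Leaving them out therefore raises the P and PJ means of that sum.

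Levels of the 34 genes differed widely, as read per length in FPKM. The highest group means belonged to Ctsb and Psap. Ctsb, a cysteine protease, averaged 533 ± 72.9 FPKM in PJ, 489 ± 62.1 in P, 445 ± 64.4 in J, 503 ± 82.5 in OVX and 698 ± 140 in Sham (SD, n = 3 each). Psap, the precursor of the saposins that help to degrade sphingolipids, averaged 533 ± 55.4 FPKM in PJ, 453 ± 94.1 in P, 435 ± 54.1 in J, 442 ± 43.3 in OVX and 520 ± 29.5 in Sham (SD, n = 3 each). The lowest was Mcoln1, the calcium channel TRPML1 of the lysosomal membrane, with 0.0713 to 0.258 FPKM in PJ, 0.0982 to 0.214 in P, 0.127 to 0.181 in J, 0.0407 to 0.201 in OVX and 0.038 to 0.168 in Sham. Mcoln1 rested on 3 to 30 reads a library, fell under the filter of a mean of 1 FPKM and was not tested, which left 33 genes.

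Within the pump, the proteolipid Atp6v0c, which forms most of the rotating membrane ring, was the highest of the 12 sector subunits in 15 of 15 libraries and made up 27.1% to 33.7% of their summed FPKM. Atp6v1h, a regulatory subunit, was the lowest in 10 libraries. Summed V0 subunits had 485 to 546 FPKM in PJ, 418 to 511 in P, 451 to 644 in J, 451 to 476 in OVX and 314 to 547 in Sham, so that PJ lay above OVX while P, J and Sham overlapped it. Summed V1 subunits had 266 to 405 FPKM in PJ, 230 to 395 in P, 238 to 323 in J, 206 to 217 in OVX and 203 to 385 in Sham, and the OVX libraries lay below every library of the 3 treated groups.

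**Figure D1:**
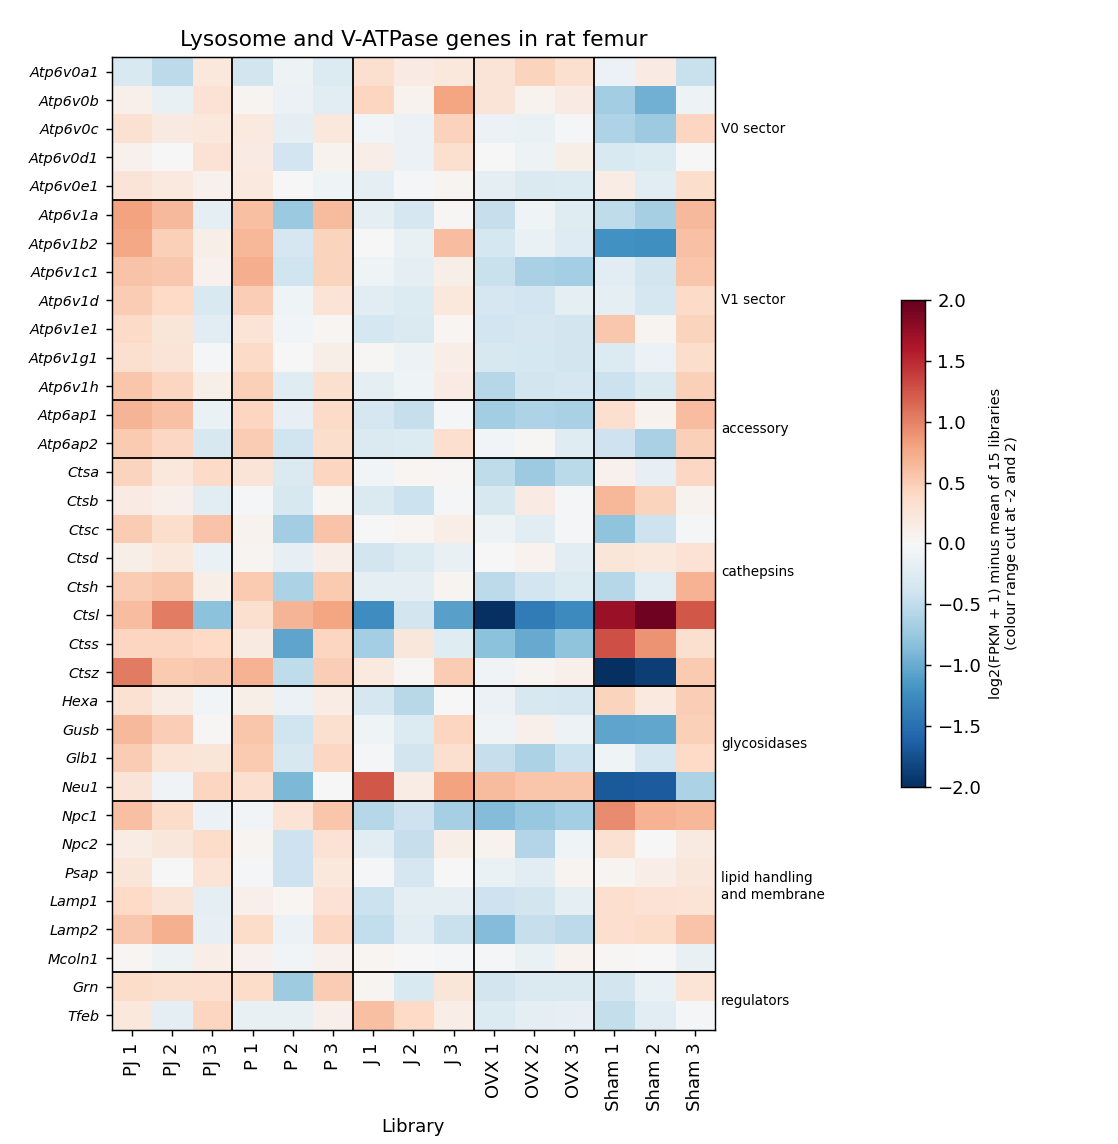
Each row is 1 of the 34 genes, ordered by role, and each column 1 library, with groups separated by black lines. Colour gives log2(FPKM + 1) minus the mean of the 15 libraries for that gene. Ctsl is red in Sham and blue in OVX, and Neu1 is blue in Sham and pale red in OVX. Sham 3 differs from Sham 1 and Sham 2 in rows such as Ctsz and Atp6v1b2.

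Differences anywhere among the 5 groups were tested first, with an F test (limma on log2(FPKM + 1), Benjamini-Hochberg adjusted p under 0.05). It was passed by 13 of the 33 tested genes (39.4%), against 50.0% of all 14416 tested genes. The 13 were Atp6v0a1, Atp6v0b, Atp6v1e1, Atp6ap1, Ctsa, Ctsl, Ctss, Hexa, Neu1, Npc1, Lamp1, Lamp2 and Tfeb, with Npc1 (adjusted p = 0.000148, limma) and Ctsl (0.000248) the lowest. Without Sham 3, 20 genes passed, with no share of all tested genes given for that setting. Of the 34 genes, 19 had their highest group mean in PJ, 9 in Sham, 3 in J, 2 in P and 1 in OVX. The lowest group mean was in OVX for 18 genes, in Sham for 11, in J for 4 and in P for 1.

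The comparison of OVX with Sham sets femurs of ovariectomised rats given saline beside those of sham-operated rats. In OVX, 9 of 33 tested genes fell and 3 rose. The fallen genes included the cathepsins Ctsl, Ctss and Ctsa, the cholesterol exporter Npc1 and the membrane glycoproteins Lamp1 and Lamp2, and the risen ones were the sialidase Neu1 and the V0 subunits Atp6v0b and Atp6v0a1. The 12 calls are 36.4% of the 33 genes, against 54.2% of all tested genes (25.3% higher and 28.9% lower), so a smaller share of this list passed than of all genes. The median log2 fold change of the list was -0.33, against -0.04 for all tested genes, and every fold change here is on the log2(FPKM + 1) scale, which understates changes of low genes. In bulk femur, fewer cells of a type and less RNA per cell cannot be told apart. The make-up of the tissue differed as well. Cartilage markers summed to 2315 to 4480 FPKM in Sham and 1.86 to 3.06 in OVX, and neutrophil markers to 291 to 665 and 20780 to 24158. An effect of ovariectomy cannot be told apart from a difference in the bone or marrow sampled.

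Among the cathepsins, Ctsl, a cysteine endoprotease, changed most. It had 134, 178 and 49.3 FPKM in PJ, 109, 140 and 152 in P, 36.2, 67.6 and 40.8 in J, 19.0, 32.6 and 35.4 in OVX, and 291, 340 and 207 in Sham. The OVX libraries were the lowest of all and the Sham libraries the highest, with no overlap between the groups. Ctsl fell by 3.24 on the log2 scale in OVX against Sham (SE 0.41, adjusted p = 3.07e-05, limma), the largest fold change of the list. Ctsb, a cysteine protease of the same family, differed by -0.46 ± 0.20 (SE) and did not pass (adjusted p = 0.0715, limma), although without Sham 3 it did (-0.62, adjusted p = 0.0257, limma). The ratio of Ctsl to Ctsb FPKM averaged 0.218 ± 0.104 in PJ, 0.277 ± 0.0614 in P, 0.112 ± 0.053 in J, 0.057 ± 0.012 in OVX and 0.401 ± 0.0678 in Sham (SD, n = 3 each).

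Ctss, a cysteine protease known from antigen-presenting cells, was chosen for per-library values after these were seen. It had 108, 108 and 105 FPKM in PJ, 90.6, 37.9 and 107 in P, 49.2, 93.5 and 67.4 in J, 44.5, 38.9 and 44.9 in OVX, and 196, 149 and 100 in Sham. The 3 PJ libraries were nearly alike and all above OVX, whereas P 2 lay below each OVX library. Ctss fell by 1.72 in OVX against Sham on the log2 scale (SE 0.35, adjusted p = 0.00103, limma).

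Ctsa, a serine carboxypeptidase that also protects Neu1 and Glb1 in a complex, had 121, 103 and 116 FPKM in PJ, 106, 71.9 and 120 in P, 84.9, 91.0 and 90.2 in J, 61.8, 53.3 and 60.5 in OVX, and 94.1, 78.7 and 118 in Sham. Every OVX library was below every library of the other 4 groups. Ctsa fell by 0.70 in OVX against Sham (SE 0.19, adjusted p = 0.00621, limma). Ctsd, the main aspartic protease of lysosomes, had 168, 178 and 140 FPKM in PJ, 161, 138 and 170 in P, 119, 127 and 139 in J, 153, 163 and 133 in OVX, and 183, 178 and 188 in Sham. Ctsd was lower in every OVX library than in every Sham library, but the fold change of -0.29 ± 0.14 (SE) did not pass (adjusted p = 0.0861, limma).

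The other 3 cathepsins did not pass in OVX against Sham: Ctsc, which activates serine proteases of neutrophil granules, had a log2 fold change of 0.29, the aminopeptidase Ctsh -0.36 and the carboxypeptidase Ctsz 1.22. Ctsz, chosen after its values were seen, had 161, 112 and 114 FPKM in PJ, 126, 54.6 and 110 in P, 89.2, 78.7 and 111 in J, 73.8, 81.2 and 83.2 in OVX, and 15.8, 20.4 and 112 in Sham. Sham 1 and Sham 2 were the lowest of all libraries, while Sham 3 lay with the treated groups. Without Sham 3, Ctsz rose in OVX (log2 fold change 2.08, adjusted p = 0.000161, limma).

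The glycosidases moved apart. Neu1, the lysosomal sialidase, had 46.9, 37.1 and 53.0 FPKM in PJ, 49.3, 20.4 and 39.1 in P, 93.2, 43.4 and 68.7 in J, 61.0, 58.0 and 57.6 in OVX, and 11.5, 11.6 and 24.8 in Sham. Sham libraries were below every OVX, J and PJ library, and Sham 3 was the highest of them. Neu1 rose by 1.91 on the log2 scale in OVX against Sham (SE 0.36, adjusted p = 0.000562, limma). Hexa, the alpha subunit of beta-hexosaminidase, which degrades gangliosides, had 38.6, 34.2 and 29.6 FPKM in PJ, 33.5, 28.3 and 34.5 in P, 24.4, 20.7 and 31.1 in J, 28.3, 24.5 and 24.2 in OVX, and 42.7, 35.6 and 43.7 in Sham. OVX was below Sham with no overlap, and Hexa fell by 0.64 (SE 0.16, adjusted p = 0.00394, limma). Glb1, the beta-galactosidase that acts in the same complex as Neu1 and Ctsa, had a fold change of -0.50 ± 0.24 (SE) in OVX against Sham (adjusted p = 0.102, limma, and 0.0497 without P 2). The ratio of Neu1 to Ctsa FPKM averaged 0.402 ± 0.051 in PJ, 0.359 ± 0.0953 in P, 0.778 ± 0.311 in J, 1.01 ± 0.0706 in OVX and 0.16 ± 0.0455 in Sham (SD, n = 3 each).

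Of the 5 tested genes of lipid handling and of the lysosomal membrane, Npc1, Lamp1 and Lamp2 fell in OVX, and Npc2 and Psap did not pass. Npc1, the membrane protein that exports cholesterol from lysosomes, had 8.25, 6.92 and 4.67 FPKM in PJ, 4.87, 6.43 and 7.94 in P, 3.14, 3.61 and 2.88 in J, 2.34, 2.60 and 2.84 in OVX, and 10.8, 8.91 and 8.74 in Sham. The order of the groups was OVX and J lowest, then P and PJ, which overlapped, and Sham above all of them. Npc1 fell by 1.54 in OVX against Sham (SE 0.19, adjusted p = 2.73e-05, limma), while its soluble partner Npc2 had a fold change of -0.36 ± 0.22 (SE) (adjusted p = 0.177, limma) and Psap -0.24 (adjusted p = 0.285).

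Lamp2, a membrane glycoprotein needed for autophagic fusion, had 46.4, 52.7 and 28.2 FPKM in PJ, 41.2, 29.2 and 42.4 in P, 22.2, 27.0 and 23.1 in J, 16.9, 22.7 and 21.8 in OVX, and 40.5, 41.1 and 47.7 in Sham. Lamp1, the most used marker of lysosomes, had 152, 138 and 100 FPKM in PJ, 123, 118 and 141 in P, 85.2, 102 and 101 in J, 86.2, 88.7 and 101 in OVX, and 146, 141 and 139 in Sham. For both genes the OVX libraries lay below the Sham libraries without overlap, and PJ 3 was the lowest of the PJ libraries. Lamp2 fell by 1.05 (SE 0.22, adjusted p = 0.00126, limma) and Lamp1 by 0.62 (SE 0.15, adjusted p = 0.00417, limma) in OVX against Sham.

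Subunits of the pump differed in direction. Atp6v0b, a proteolipid of the membrane ring, had 103, 86.2 and 118 FPKM in PJ, 99.3, 88.8 and 81.7 in P, 130, 101 and 166 in J, 115, 101 and 108 in OVX, and 59.1, 48.8 and 89.6 in Sham. It rose by 0.75 in OVX against Sham (SE 0.22, adjusted p = 0.012, limma), although Sham 3 reached the level of P, and without Sham 2 it did not pass (0.56, adjusted p = 0.0626, limma). Atp6v0a1, the general form of the large membrane subunit a, had 27.0, 22.9 and 39.0 FPKM in PJ, 25.8, 31.0 and 27.6 in P, 42.0, 37.7 and 38.8 in J, 40.1, 45.9 and 42.0 in OVX, and 30.7, 37.6 and 24.4 in Sham. It rose by 0.47 in OVX against Sham (SE 0.19, adjusted p = 0.0478, limma), a call that ended when any of 11 single libraries was left out (Sham 1, Sham 3, any single OVX library, any single J library, P 1, P 3 or PJ 1), at adjusted p of 0.056 to 0.189 (limma).

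In the V1 sector, Atp6v1e1, a stalk subunit, had 46.0, 41.5 and 29.5 FPKM in PJ, 42.2, 33.5 and 35.7 in P, 27.2, 28.5 and 35.7 in J, 26.6, 27.3 and 26.9 in OVX, and 51.0, 36.3 and 47.6 in Sham. The OVX libraries were close to each other and below all Sham libraries, and Atp6v1e1 fell by 0.70 (SE 0.18, adjusted p = 0.00466, limma). The other 6 tested V1 subunits did not pass, with log2 fold changes of -0.58 (Atp6v1c1, which passed without P 2, adjusted p = 0.0436, limma) to 0.36 (Atp6v1b2). Atp6v1b2, the general nucleotide-binding subunit B, averaged 51.9 ± 4.0 FPKM in OVX and 48.5 ± 39.1 in Sham (SD, n = 3 each), where Sham 3 had 93.7 and the other two 26.1 and 25.9. Atp6ap1, an accessory subunit needed for pump assembly, had 108, 101 and 61.4 FPKM in PJ, 90.9, 59.6 and 87.8 in P, 52.8, 48.6 and 66.0 in J, 41.0, 43.3 and 42.2 in OVX, and 84.5, 70.3 and 103 in Sham. All OVX libraries were below all others, and Atp6ap1 fell by 0.99 in OVX against Sham (SE 0.23, adjusted p = 0.00256, limma). Its partner Atp6ap2, the prorenin receptor, had a log2 fold change of 0.11 ± 0.33 (SE).

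Tfeb itself had 13.0, 9.57 and 15.4 FPKM in PJ, 10.0, 9.94 and 12.0 in P, 17.4, 15.0 and 12.3 in J, 9.07, 9.56 and 9.80 in OVX, and 7.78, 9.44 and 10.9 in Sham. OVX and Sham overlapped, with a log2 fold change of 0.02 ± 0.18 (SE, adjusted p = 0.924, limma). Grn, which codes for progranulin, a lysosomal growth factor precursor, had 140, 136 and 138 FPKM in PJ, 140, 66.1 and 156 in P, 113, 87.9 and 129 in J, 84.5, 89.4 and 88.7 in OVX, and 84.2, 98.7 and 132 in Sham. It differed by -0.24 ± 0.27 (SE, adjusted p = 0.492, limma) in OVX against Sham.

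**Figure D2:**
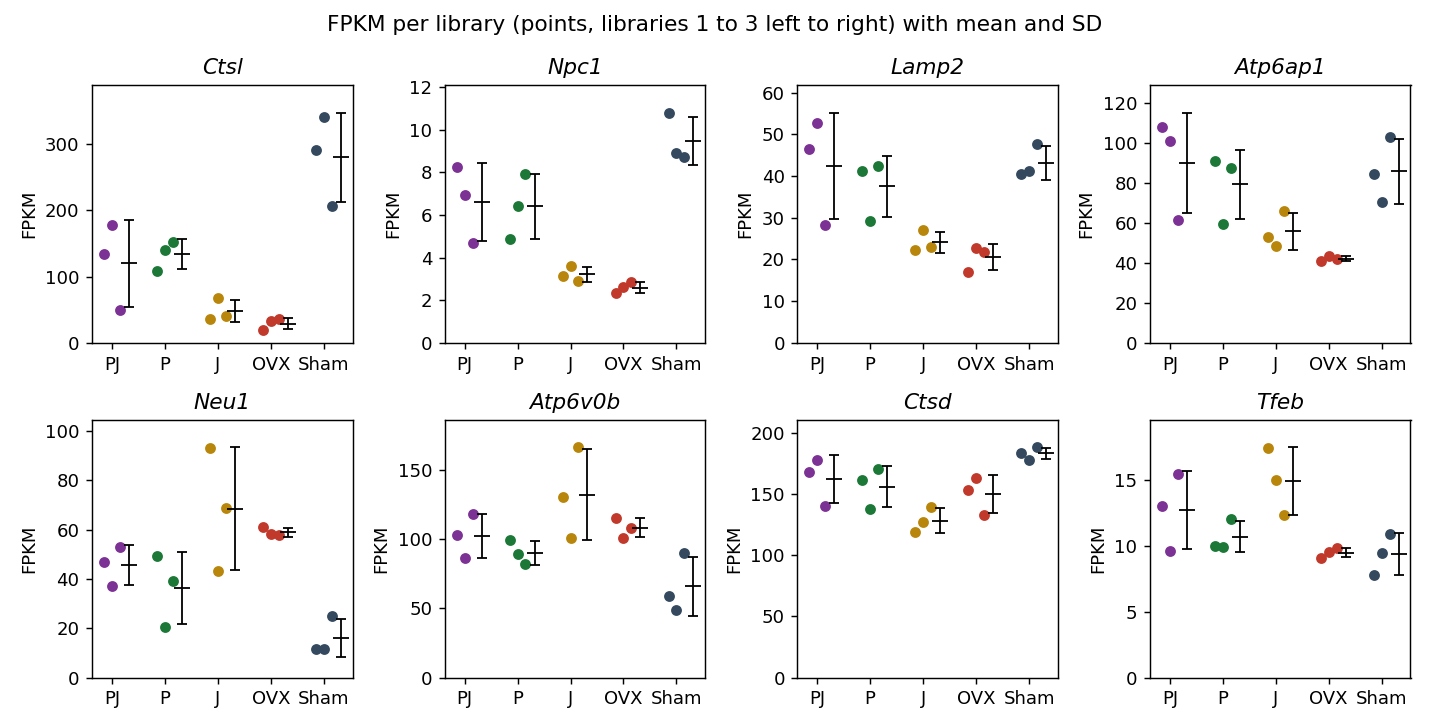
Points are FPKM of 8 genes in each library of PJ, P, J, OVX and Sham, and the bar beside them is the mean with the SD of 3 libraries. Ctsl, Npc1, Lamp2 and Atp6ap1 are low in OVX and high in Sham, Neu1 and Atp6v0b run the other way, and Ctsd and Tfeb differ less between OVX and Sham.

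Of the 12 calls of OVX against Sham, 10 held in each of 26 alternative settings, the exceptions being Atp6v0a1 and Atp6v0b. Without Sham 3, 6 genes rose in OVX in place of 3: Atp6v0c (log2 fold change 0.59, adjusted p = 0.0212), Atp6v1b2 (0.97, 0.0177), Ctsz (2.08, 0.000161) and Gusb (1.02, 0.0091) passed as well (limma), and Atp6v0a1 no longer did. Gusb, the beta-glucuronidase, had 15.8 and 15.9 FPKM in Sham 1 and Sham 2 and 47.3 in Sham 3. The share of all genes that rose was 24.8% without Sham 3. Without Sham 3, P 2 and PJ 3 together, 8 genes rose in OVX (24.2% of the list), and 29.3% of all genes did.

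The treated groups were then compared with OVX, where marker genes of several cell types differed as well. PJ, P and J were each set against the same 3 OVX libraries, so their fold changes share that reference. In PJ, 13 of 33 tested genes rose and 1 fell. The 14 calls are 42.4% of the list, against 44.4% of all tested genes (29.8% higher and 14.6% lower), and the median log2 fold change was 0.50, against 0.22 for all tested genes. In P, 9 rose and 1 fell, which is 30.3% against 39.2% of all tested genes (24.2% higher and 15.0% lower), with a median of 0.37 against 0.12. Neither share of calls in both directions together was above that of all genes. By direction, 39.4% of the list rose in PJ and 27.3% in P, and 3.03% fell in each.

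Ctsl rose most in both groups, by 1.88 ± 0.41 (SE) in PJ (adjusted p = 0.00297, limma) and by 2.20 ± 0.41 in P (adjusted p = 0.00133, limma). All libraries of P and PJ exceeded all OVX libraries, with PJ 3 at 49.3 FPKM the lowest. Npc1 rose by 1.06 ± 0.19 in PJ (adjusted p = 0.000903, limma) and by 1.03 ± 0.19 in P (adjusted p = 0.00136, limma). Ctsa rose by 0.94 ± 0.19 in PJ (adjusted p = 0.00145, limma) and by 0.72 ± 0.19 in P (adjusted p = 0.00854, limma).

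Lamp2 rose by 0.98 ± 0.22 (SE) in PJ (adjusted p = 0.00309, limma) and by 0.84 ± 0.22 in P (adjusted p = 0.00883, limma). Lamp1 rose by 0.48 ± 0.15 in PJ (adjusted p = 0.0242, limma) and by 0.46 ± 0.15 in P (adjusted p = 0.0307, limma), and PJ 3 with 100 FPKM lay within the OVX range. The Lamp1 call in PJ ended without OVX 1, OVX 2, PJ 1 or PJ 2 (adjusted p 0.0731 to 0.109, limma) and that in P without OVX 1, OVX 2, P 1 or P 3 (0.058 to 0.106). Glb1 rose by 0.85 ± 0.24 in PJ (adjusted p = 0.0131, limma) and by 0.71 ± 0.24 in P (adjusted p = 0.0339, limma). The Glb1 call in P ended without any single OVX library, P 1 or P 3 (0.0578 to 0.128).

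Ctss rose in PJ by 1.31 ± 0.35 (SE, adjusted p = 0.00889, limma) and had a fold change of 0.74 ± 0.35 in P (adjusted p = 0.112, limma), where P 2 stood apart from P 1 and P 3. Without P 2 the value in P was 1.19 (adjusted p = 0.00539, limma). Ctsb and Ctsd had fold changes of 0.08 and 0.11 in PJ and of -0.04 and 0.06 in P, and neither passed. Neu1, high in OVX, had fold changes of -0.37 ± 0.36 in PJ and -0.77 ± 0.36 in P (adjusted p = 0.416 and 0.104, limma), and all libraries of both groups lay below the OVX libraries.

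Among pump genes, Atp6ap1 rose by 1.04 ± 0.23 (SE) in PJ (adjusted p = 0.00295, limma) and by 0.87 ± 0.23 in P (adjusted p = 0.00926, limma). Atp6v1c1, which links the V1 sector to the membrane, had 60.5, 59.5 and 43.1 FPKM in PJ, 67.6, 30.6 and 55.6 in P, 38.1, 35.4 and 44.2 in J, 29.7, 25.6 and 25.0 in OVX, and 34.8, 31.1 and 60.3 in Sham. OVX libraries were below all others, and Atp6v1c1 rose by 0.98 ± 0.28 in PJ (adjusted p = 0.0138, limma) and by 0.84 ± 0.28 in P (adjusted p = 0.0324, limma). In P, this call ended without any single OVX library, P 1 or P 3 (adjusted p 0.0553 to 0.134, limma).

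Further V1 subunits that rose in PJ were Atp6v1h by 0.79, the stalk subunit Atp6v1g1 by 0.52 and Atp6v1e1 by 0.49, each on the log2 scale. Atp6v1g1 also rose in P by 0.51. The Atp6v1e1 and Atp6v1g1 calls in PJ ended without any single OVX library, PJ 1 or PJ 2 (adjusted p 0.0802 to 0.154 and 0.052 to 0.0811, limma), and the Atp6v1h call without OVX 1, PJ 1 or PJ 2 (0.0525 to 0.0629). The Atp6v1g1 call in P ended without any single OVX library, P 1 or P 3 (0.0521 to 0.108).

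Of the regulators, Tfeb had fold changes of 0.36 ± 0.18 (SE) in PJ and 0.15 ± 0.18 in P, and Grn 0.65 ± 0.27 in PJ and 0.37 ± 0.27 in P. None of these 4 passed (adjusted p = 0.117, 0.54, 0.0701 and 0.314, limma). Without PJ 2, Tfeb passed in PJ (0.54, adjusted p = 0.0325, limma), and without P 2, Grn passed in PJ (0.65, adjusted p = 0.00848) and in P (0.75, adjusted p = 0.00927).

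The V0 sector differed within itself. Atp6v0a1 fell by 0.54 ± 0.19 (SE) in PJ (adjusted p = 0.0314, limma) and by 0.58 ± 0.19 in P (adjusted p = 0.0251, limma), the single fallen gene of the list in either group. Atp6v0e1, a small membrane subunit, had 70.3, 67.7 and 62.8 FPKM in PJ, 67.5, 59.5 and 55.7 in P, 51.1, 57.1 and 61.4 in J, 51.2, 48.3 and 48.4 in OVX, and 65.5, 50.4 and 75.6 in Sham. Every PJ and P library was above every OVX library, and Atp6v0e1 rose in PJ by 0.43 ± 0.14 (adjusted p = 0.0266, limma), with 0.30 ± 0.14 in P (adjusted p = 0.122, limma). The Atp6v0a1 and Atp6v0e1 calls in PJ ended without any single OVX library, PJ 1 or PJ 2 (adjusted p 0.0555 to 0.14 and 0.0531 to 0.0818, limma). In P the Atp6v0a1 call ended without OVX 2, OVX 3, P 1 or P 3 (0.0526 to 0.083).

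Of the 14 calls in PJ, 8 held in all 26 alternative settings (Atp6v1c1, Atp6ap1, Ctsa, Ctsl, Ctss, Glb1, Npc1 and Lamp2), and of the 10 in P, 5 did (Atp6ap1, Ctsa, Ctsl, Npc1 and Lamp2). With median-ratio scaling, which moved the median of all genes in PJ by -0.25, 8 genes rose in PJ in place of 13. Without OVX 1 or PJ 1, 8 rose in PJ, and without P 1, P 3, OVX 1 or OVX 2, 5 rose in P in place of 9. Shares of all genes are not given for these left-out libraries. Without Sham 3, P 2 and PJ 3 together, 23 rose in PJ and 19 in P (69.7% and 57.6% of the list), while 34.9% and 32.1% of all genes rose under the same setting. That setting drops the libraries with the lowest sums over the list in P and PJ, which raises the means of that sum there. With array weights, 26 rose in PJ and 19 in P (78.8% and 57.6%), against 43.1% and 36.6% of all genes. With all libraries and equal weights, the rising genes were 39.4% and 27.3% of the list, against 29.8% and 24.2% of all genes.

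**Figure D3:**
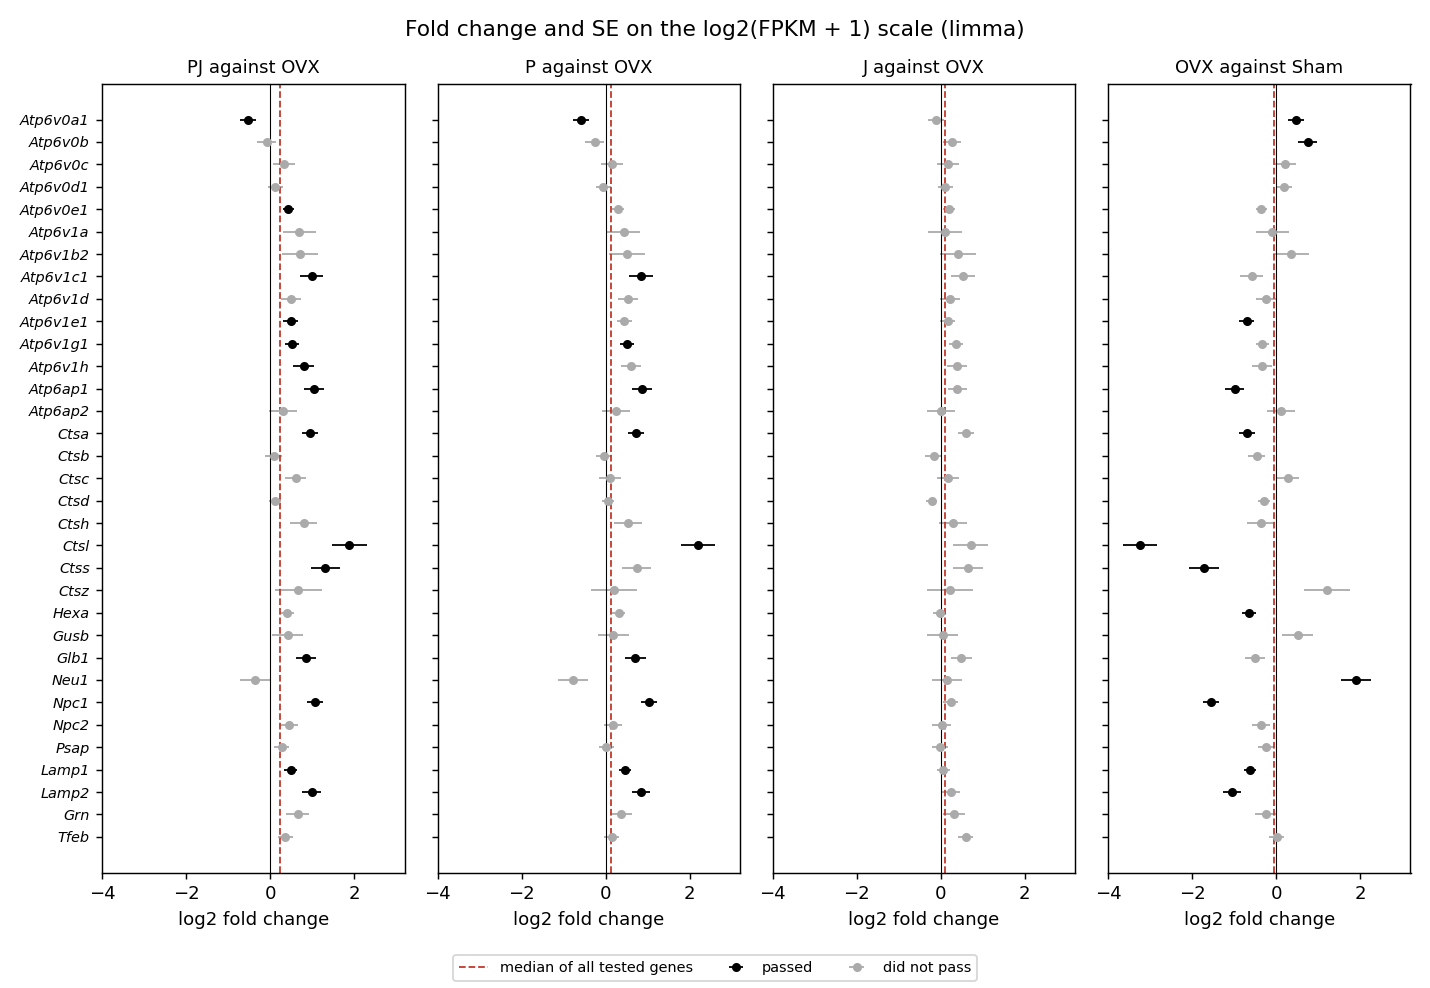
Points are log2 fold changes of the 33 tested genes on the log2(FPKM + 1) scale with the SE of the fit, 1 panel per comparison, black where the adjusted p was under 0.05. The dashed line is the median of all tested genes. Most points lie right of 0 in PJ and P against OVX, no point is black in J, and Ctsl reaches -3.24 in OVX against Sham.

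In J, none of the 33 genes passed against OVX, with 3 at an unadjusted p under 0.05, while 6.06% of all 14416 tested genes passed (3.27% higher and 2.79% lower) and 3604 had such an unadjusted p (limma). Recovered reads tested with voom also gave 0 of the list, while array weights gave 5 higher genes (and 19.0% of all genes), TPM without mitochondrial and globin genes 2 (5.49%), a fit of only J and OVX 2 (5.18%) and the replicate block 1 (3.10%). The median log2 fold change was 0.21, against 0.11 for all tested genes, and 28 of the 33 values were positive. Nearest to the threshold were Tfeb and Ctsa. Tfeb had 0.59 ± 0.18 (SE, adjusted p = 0.0681, limma), with every J library above every OVX library, and without PJ 2 or PJ 3, which enter the estimate of spread, it passed (adjusted p 0.0404 to 0.0488). Ctsa had 0.59 ± 0.19 (adjusted p = 0.0743, limma), again without overlap, and passed without P 2 (0.0308). Without Sham 3, P 2 and PJ 3 together, 5 genes rose in J (15.2% of the list), and 12.3% of all genes did.

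The extract groups were also set against each other, at the doses of 4.0, 2.4 and 1.6 g per kg per day, which differ between PJ, P and J. P against J had 2 higher genes, Ctsl (1.49 ± 0.41, SE, adjusted p = 0.0488, limma) and Npc1 (0.80 ± 0.19, adjusted p = 0.0385), against 7.42% called among all tested genes, 4.37% higher and 3.05% lower. PJ against J also had 2, Npc1 (0.83 ± 0.19, adjusted p = 0.0177, limma) and Lamp2 (0.75 ± 0.22, adjusted p = 0.0383), against 14.3% called, 8.38% higher and 5.88% lower. Both counts moved with single libraries, for which no shares of all tested genes are given. Without PJ 3, 4 genes were higher in P against J and 8 in PJ against J. Without any single J or P library, or without Sham 1, Sham 2 or OVX 2, none was higher in P against J, and 1 was without Sham 3, OVX 1, OVX 3 or PJ 1. Without J 1, J 3, PJ 1 or PJ 2, none was higher in PJ against J, and 1 was without Sham 2, OVX 2 or J 2. In PJ against P, 0 of 33 genes and 0% of all tested genes passed (limma; 0 and 296 at an unadjusted p under 0.05; 0 of the list with voom). The 33 fold changes of PJ against P ran from -0.32 to 0.57 with a median of 0.16, against 0.08 for all tested genes, which does not show that the groups were alike.

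The general subunits can be read beside 9 isoforms of specialised cells, of which 4 were high enough to test (Tcirg1, Atp6v0d2, Atp6v0e2 and Atp6v1c2). Of these 4, 3 rose in PJ, 4 in P and 1 in J against OVX, and 1 fell in OVX against Sham, where 29.8%, 24.2% and 3.27% of all genes rose and 28.9% fell. Without Sham 3, 2 of the 4 fell in OVX and 2 rose in J, where 26.3% of all genes fell in OVX and 3.42% rose in J.

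Atp6v0e2, a second form of the small membrane subunit e, had the smallest p of the 4 in each of these comparisons. It had 10.3, 10.2 and 9.11 FPKM in PJ, 10.1, 8.71 and 8.39 in P, 6.33, 6.08 and 5.68 in J, 4.11, 2.62 and 4.02 in OVX, and 9.97, 10.2 and 11.8 in Sham. The OVX libraries were below all others, the J libraries lay between OVX and the rest, and Sham 3 was close to Sham 1 and Sham 2. Atp6v0e2 rose by 1.26 ± 0.14 (SE) in PJ (adjusted p = 3.96e-05, limma), by 1.15 ± 0.14 in P (adjusted p = 0.000129) and by 0.63 ± 0.14 in J (adjusted p = 0.0278), and fell by 1.36 in OVX against Sham (SE 0.14, adjusted p = 7.24e-06).

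Atp6v0d2, the osteoclast form of subunit d, had 55.8, 50.0 and 18.7 FPKM in PJ, 44.7, 11.7 and 33.7 in P, 6.27, 8.42 and 22.3 in J, 0.454, 2.90 and 1.72 in OVX, and 1.00, 0.999 and 46.2 in Sham. It was low in all OVX libraries and in Sham 1 and Sham 2 and high in Sham 3. The general form Atp6v0d1 stayed between 33.5 (P 2) and 55.5 FPKM (J 3) in all libraries. Atp6v0d1 made up 55.7% ± 16.2 of the sum of both forms in PJ, 61.6% ± 11.2 in P, 80.9% ± 8.76 in J, 96.3% ± 2.8 in OVX and 81.1% ± 28 in Sham (SD, n = 3 each), with 48.8% in Sham 3 and 97.3% in each of Sham 1 and Sham 2.

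Tcirg1, the subunit a of the osteoclast pump, had 58.3, 50.5 and 62.6 FPKM in PJ, 51.5, 47.6 and 47.4 in P, 43.8, 36.1 and 61.9 in J, 25.3, 29.0 and 34.6 in OVX, and 29.2, 29.9 and 45.3 in Sham. Each library of PJ, P and J was above each OVX library. Atp6v0a1 made up 33.8% ± 4 of the summed forms Atp6v0a1, Tcirg1 and Atp6v0a4 in PJ, 36.5% ± 3.05 in P, 46.2% ± 6.72 in J, 59.1% ± 3.71 in OVX and 47.3% ± 10.9 in Sham (SD, n = 3 each). In PJ and P against OVX, Atp6v0a1 fell while Tcirg1 rose by 0.93 ± 0.21 (SE, adjusted p = 0.00319, limma) and 0.71 ± 0.21 (adjusted p = 0.0162). Atp6v0d2 rose by 3.95 ± 1.02 in PJ and 3.45 ± 1.02 in P (adjusted p = 0.00767 and 0.0177, limma). By contrast, Atp6v1b2 held 98.9% to 100% of the summed B forms in all 15 libraries, and Atp6v1c1 87.3% to 97.7% of the summed C forms.

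**Figure D4:**
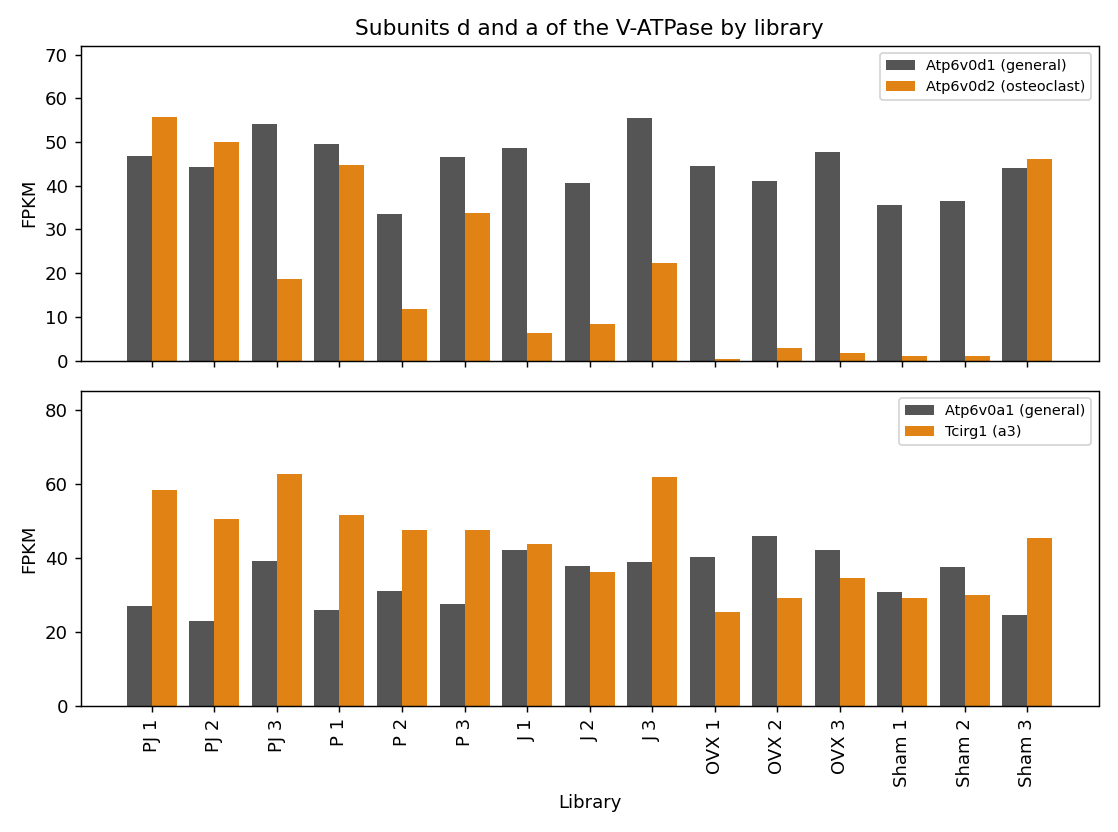
Bars give FPKM per library of the general and osteoclast forms of subunit d (upper panel) and of Atp6v0a1 and Tcirg1, the a1 and a3 forms of subunit a (lower panel). Atp6v0d2 is between 0.454 and 2.90 FPKM in OVX and reaches 55.8 in PJ 1, whereas Atp6v0d1 keeps to 33.5 to 55.5.

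Marker genes of several cell types differed between the same groups. Summed over the 34 genes, FPKM was 3892, 3628 and 3250 in PJ, 3505, 2495 and 3635 in P, 2797, 2600 and 3303 in J, 2564, 2694 and 2752 in OVX, and 3434, 3267 and 3840 in Sham. PJ and Sham libraries lay above all OVX libraries, and P 2 lay below them. The 13 macrophage markers summed to 524 to 638 FPKM in PJ, 217 to 629 in P, 210 to 430 in J, 213 to 366 in OVX and 515 to 663 in Sham. Of the 12 tested, 3 fell in OVX against Sham, 6 rose in PJ and 3 in P against OVX, and none passed in J (limma, 1 at an unadjusted p under 0.05). Of all genes, 28.9% fell in OVX against Sham and 29.8% and 24.2% rose in PJ and P. Without Sham 3, P 2 and PJ 3 together, 7 macrophage markers rose in PJ and 6 in P, beside 34.9% and 32.1% of all genes. Marco, a scavenger receptor of some macrophages, was at 0 in 13 libraries and at 0.365 FPKM or less in PJ 2 and P 2, and Vsig4 was at 154 and 74.7 FPKM in Sham 1 and Sham 2 and at 7.62 in Sham 3.

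The 12 osteoclast markers summed to 1246 to 2843 FPKM in PJ, 660 to 2587 in P, 556 to 1303 in J, 415 to 467 in OVX and 135 to 2428 in Sham. The highest of them in OVX were Itgb3 (mean 177 FPKM) and Mmp9 (110), above Ctsk (67.9), Acp5 (38.9) and Atp6v0d2 (1.69). Itgb3 ran against most of the list. It rose by 3.49 in OVX against Sham and had -1.29 in PJ, -1.38 in P and -1.66 in J against OVX, which did not pass. In PJ 8 of the 12 rose and in P 7, 0 passed in J (limma, 6 at an unadjusted p under 0.05), and in OVX against Sham 1 rose and 2 fell, beside 29.8% and 24.2% of all genes that rose in PJ and P and 25.3% that rose and 28.9% that fell in OVX. Without Sham 3, 10 rose in PJ, 9 in P and 4 in J, 1 fell in each, and 4 rose and 2 fell in OVX against Sham. The markers Acp5, Oscar and Mmp9 were those that then rose in OVX in addition. Of all genes, 30.1%, 24.4% and 3.42% rose and 14.7%, 15.1% and 2.97% fell in PJ, P and J without Sham 3. In OVX against Sham, 24.8% of all genes rose and 26.3% fell under that setting. None was at 0 in all libraries, although the calcitonin receptor Calcr was at 0.0662 to 0.0697 FPKM in OVX and at 0 in Sham 2. P 2 and PJ 3 had the lowest sums of their groups in these markers, 660 and 1246, and Sham 3 the highest, 2428.

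The other marker lists are set beside the same shares of all genes. Of all genes, 14.6% fell in PJ and 15.0% in P against OVX, and 3.27% rose and 2.79% fell in J. Neutrophil markers summed to 1863 to 9282 FPKM in PJ, 3640 to 7092 in P, 9568 to 23417 in J, 20780 to 24158 in OVX and 291 to 665 in Sham. All 11 rose in OVX against Sham, and 11 fell in PJ and 10 in P against OVX. Erythroid markers summed to 1226 to 5462 FPKM in PJ, 3088 to 8559 in P, 15934 to 19456 in J, 28611 to 38099 in OVX and 342 to 2091 in Sham. All 10 rose in OVX against Sham and fell in PJ and P against OVX, and 1 fell in J.

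Endothelial markers summed to 186 to 401 FPKM in PJ, 243 to 298 in P, 125 to 165 in J, 56.5 to 84.9 in OVX and 368 to 614 in Sham. All 8 fell in OVX against Sham (median log2 fold change -2.56) and rose in PJ (1.98) and P (1.88) against OVX, and 1 rose in J. This list ran the same way as Ctsl, Npc1, Lamp1, Lamp2, Ctsa and Atp6ap1 in those 3 comparisons. So did the called genes of the macrophage, cartilage, and osteoblast and osteocyte lists, and of the osteoclast list except Itgb3. Neu1, Atp6v0b and Atp6v0a1 instead rose in OVX against Sham, and Ctsb, Ctsd, Npc2 and Psap passed in none of the 3 comparisons. Cartilage markers summed to 4.8 to 656 FPKM in PJ, 26.0 to 2176 in P, 2.48 to 141 in J, 1.86 to 3.06 in OVX and 2315 to 4480 in Sham. All 6 tested fell in OVX against Sham, and 2 rose in PJ and 3 in P.

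Adipocyte markers summed to 2789 to 4521 FPKM in PJ, 696 to 4118 in P, 1022 to 2338 in J, 131 to 1410 in OVX and 483 to 1965 in Sham. All 8 rose in PJ and 3 in P against OVX, and 0 passed in J or in OVX against Sham (limma; 4 and 1 at an unadjusted p under 0.05). B cell markers summed to 379 to 761 FPKM in PJ, 172 to 615 in P, 596 to 1113 in J, 395 to 594 in OVX and 66.2 to 216 in Sham, and 6 of 8 rose in OVX against Sham. Skeletal muscle markers summed to 8.82 to 11.6 FPKM in PJ, 8.58 to 1036 in P, 9.91 to 111 in J, 5.78 to 82.1 in OVX and 24.4 to 298 in Sham, and P 2 held the value of 1036. Of 7 tested, 1 fell in OVX against Sham, and 4 did without Sham 3, where 26.3% of all genes fell. Without Sham 3, P 2 and PJ 3 together, 8 adipocyte markers rose in P and 6 cartilage markers in PJ. Of all genes, 32.1% and 34.9% rose in P and PJ under that setting. The part of any of these cell types in the results on lysosomal genes was not tested.

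Osteoblast and osteocyte markers, which check the label of bone, summed to 1364 to 7510 FPKM in PJ, 1317 to 9495 in P, 1852 to 2860 in J, 299 to 564 in OVX and 345 to 6216 in Sham. Of 11, 1 fell in OVX against Sham (Spp1), and 3 rose in PJ and 5 in P against OVX. Without Sham 3, P 2 and PJ 3 together, 10 rose in each of PJ and P, beside 34.9% and 32.1% of all genes. The osteocyte gene Sost was at 0.28 and 0.432 FPKM in Sham 1 and Sham 2 and at 313 in Sham 3. Sost was chosen after its values were seen.

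**Figure D5:**
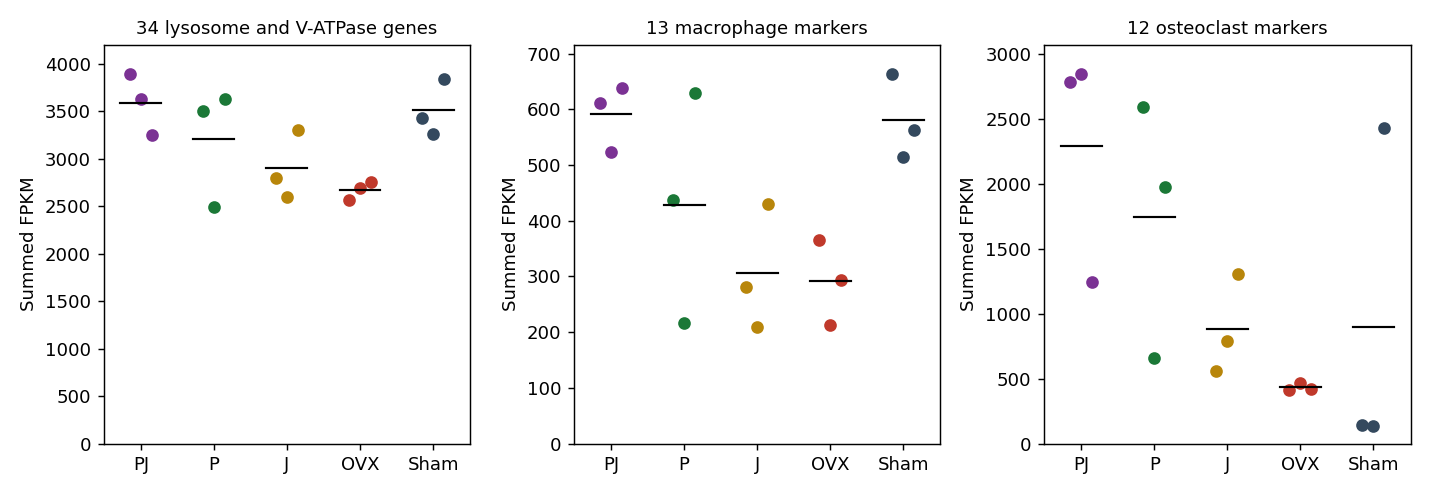
Points are summed FPKM per library of the 34 lysosome and V-ATPase genes, of 13 macrophage markers and of 12 osteoclast markers, and the line is the group mean. The 34 genes and the macrophage markers are lowest on average in OVX, and in the osteoclast panel Sham 3 at 2428 lies far above Sham 1 and Sham 2.

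Genes of the same pathway that are not on the list were counted in lists of their own. Against them stand the shares of all genes, of which 25.3% rose and 28.9% fell in OVX against Sham, 29.8% rose and 14.6% fell in PJ and 24.2% rose and 15.0% fell in P against OVX. Of 32 other lysosomal hydrolases tested, 21 fell and 1 rose in OVX against Sham, 25 rose in PJ and 18 in P against OVX, and none passed in J (limma, 9 at an unadjusted p under 0.05). That is 65.6% lower in OVX and 78.1% and 56.2% higher in PJ and P. Without Sham 3, 18 fell and 1 rose in OVX, beside 26.3% and 24.8% of all genes. Without Sham 3, P 2 and PJ 3 together, 28 rose in each of PJ and P and 9 in J. Of all genes, 34.9%, 32.1% and 12.3% rose in PJ, P and J under that setting. The phospholipase-like Plbd2 averaged 41.8 FPKM in PJ, 40.2 in P, 19.2 in OVX and 54.4 in Sham, with log2 fold changes of 1.06 in PJ, 1.03 in P and -1.45 in OVX. Gaa, the acid alpha-glucosidase that degrades glycogen, averaged 20.2 FPKM in PJ, 17.1 in P, 7.33 in OVX and 18.3 in Sham, with 1.34 in PJ, 1.10 in P and -1.21 in OVX. The arylsulfatase Arsa and the cathepsin Ctsf also fell in OVX (-1.08 and -1.22) and rose in PJ (1.23 and 0.97) and P (1.11 and 0.84).

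Of 16 other lysosomal membrane proteins, 6 fell and 2 rose in OVX against Sham, and 8 rose and 1 fell in each of PJ and P against OVX. Laptm4a, a small transmembrane protein, averaged 225 FPKM in PJ, 213 in P, 66.4 in OVX and 275 in Sham, and Laptm4b 21.7, 22.4, 8.73 and 27.5 in the same groups. The peptide transporter Abcb9 went the other way, with 2.95 FPKM in PJ, 3.36 in P, 6.53 in OVX and 1.94 in Sham, and passed in each of these 3 comparisons. Scarb2, the receptor that carries beta-glucocerebrosidase to lysosomes, fell by 1.58 in OVX against Sham and rose by 1.32 in PJ and 1.11 in P against OVX. The transporter Abca2 averaged 10.8 FPKM in PJ, 8.55 in P, 5.07 in OVX and 9.78 in Sham, and passed in the same 3 comparisons.

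Of 16 genes of the MiT family (the relatives of Tfeb) and of nutrient sensing, 3 fell and 3 rose in OVX against Sham, and 3 rose in each of PJ and P, shares of 18.8% each way in OVX and 18.8% higher in PJ and P that lie below those of all genes. Without Sham 3, 2 fell and 2 rose in OVX, beside 26.3% and 24.8% of all genes. Tfe3 had 11.6, 11.1 and 13.2 FPKM in PJ, 10.5, 10.8 and 11.9 in P, 9.07, 8.68 and 9.99 in J, 6.54, 7.39 and 7.76 in OVX, and 12.0, 13.0 and 12.2 in Sham. It fell by 0.70 in OVX against Sham (SE 0.11, adjusted p = 0.000158, limma) and rose in PJ by 0.66 (SE 0.11, adjusted p = 0.000496) and in P by 0.55 (SE 0.11, adjusted p = 0.00194). Mitf, a factor of melanocytes and osteoclasts, fell by 1.63 in OVX and rose by 1.00 in PJ and 1.23 in P, whereas Tfeb passed in none of these 3 comparisons. Tfec, a further relative, rose by 1.18 in OVX against Sham. Flcn, which codes for folliculin, a regulator of nutrient signalling at the lysosome, rose by 0.56 in PJ and 0.49 in P.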

How the data were processed

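Polyadenylated RNA of rat femurs was measured in 15 libraries, grouped by their titles. The submitters' processing notes list, without their roles, featureCounts 2.0.6, STAR 2.7.11a and fastp 0.23.4, on build mRatBN7.2. No source used here says whether counting kept strand, so overlapping genes may share reads. The deposited column headed count holds FPKM, as values that are not whole and scale with gene length show, and the column headed FPKM was empty in all 15 files.

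Within a gene, FPKM values were whole multiples of what 1 read is worth. This gave library totals of 34.3 to 61.0 in units of 1000000 reads and a step for all 24207 genes above 0 (tolerance 0.05 reads). As 59.8% of reads from 1 to 20 were even, these may be read ends.

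Genes with a mean of at least 1 FPKM (14416) were fitted as log2(FPKM + 1) with limma 3.58.1 in R 4.3.3 (variance trend, all 15 libraries, 10 residual degrees of freedom, two-sided, Benjamini-Hochberg over all tested genes, threshold 0.05). The test was also run on simulated reads in which few genes changed, and only in OVX. That does not show how it performs on these data, where many genes differ and some libraries stand apart. Fitted intervals cover the spread between libraries only.

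Members, related lists and markers were chosen with earlier results of these data known. Library values are printed for the 2 members of each role with the smallest F test p (1 for accessory subunits), for Tfeb, Lamp1 and Ctsd, and for members called against their role. Of each related list, up to 3 called genes with the smallest p in each main comparison are named, except 1 that is not reported here. Other settings tried were 0.1 as pseudocount, all genes unfiltered, a mean of at least 5 FPKM, TPM, median-ratio scaling, TPM without mitochondrial and globin genes, array weights, only the groups compared, a replicate block, left-out libraries and, added after the data were seen, voom on recovered reads and the counts of related and marker lists without doubted libraries. RefSeq promoters came from assembly GRCr8, which is not the build of the files.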

Additional observations from a re-analysis of the deposited data

How the results depend on the processing

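No member's called fold change changed sign in any alternative. Counts of members that moved by more than 1.5 times are given here, and the cause was not tested. Where no share of all genes is given for a setting, a moved count does not speak of the list alone. A pseudocount of 0.1 left 1 higher in P against J (2 as reported). With no filter, 0 were higher in P against J and 1 in PJ against J. Rescaled to TPM, 5 were higher in P against OVX, 0 lower in PJ against OVX and 0 higher in P against J. Median-ratio scaling gave 2 lower in P and 8 higher in PJ against OVX, and 1 higher in each of P and PJ against J; for all genes it gave 3003 higher and 3569 lower in PJ and 2795 higher and 3385 lower in P, where 4298 and 2103 and 3486 and 2160 were reported. In OVX against Sham the split was 4303 higher and 3954 lower (2941 and 4275 with TPM, 3291 and 4783 with TPM without mitochondrial and globin genes, 3650 and 4163 as reported). The same split was 420 higher and 947 lower in J (791 and 350 with TPM without mitochondrial and globin genes, 471 and 402 as reported), 519 and 844 in P against J (260 and 69 with TPM, 630 and 439 as reported) and 661 and 1463 in PJ against J (1705 and 566 with TPM, 1208 and 848 as reported). It moved the median of all genes by -0.25 in PJ, -0.17 in P and -0.15 in PJ against J, and TPM moved it by 0.13 in PJ and 0.18 in PJ against J. With median-ratio scaling the members' median in PJ was 0.22 and that of all genes -0.03, where 0.50 and 0.22 were reported. TPM without mitochondrial and globin genes gave 15 lower in OVX against Sham, 2 higher in J, 14 higher and 0 lower in P and 0 lower in PJ against OVX, and 1 higher in P against J. Array weights gave 8 higher in OVX against Sham, 5 higher in J, 19 in P and 26 in PJ against OVX, 9 higher and 4 lower in P against J, 21 higher and 2 lower in PJ against J, and 31 passing over the 5 groups. Fits of only the groups compared gave 2 higher in J and 0 lower in PJ against OVX, and 0 higher in each of P and PJ against J. Without Sham 3, P 2 and PJ 3 together, 8 were higher in OVX against Sham, 5 in J, 19 in P and 23 in PJ against OVX, 10 higher and 1 lower in P against J, 16 higher and 1 lower in PJ against J, and 29 passed over the 5 groups. With voom on recovered reads, added after the data were seen, 1 was higher in P against J.

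The replicate numbers did not pair the libraries (correlations of deviations -0.29 to 0.22). With the replicate block, 1 was higher in J and 2 lower in P against OVX and 1 higher in PJ against J.

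Leaving out each library in turn, higher members numbered 2 to 6 in OVX against Sham, 0 to 1 in J, 5 to 13 in P and 8 to 16 in PJ against OVX, 0 to 4 in P against J and 0 to 8 in PJ against J. Lower members numbered 9 to 11 in OVX against Sham, 0 to 1 in P and 0 to 1 in PJ against OVX, and 0 to 1 in each of P and PJ against J. Over the 5 groups 9 to 20 passed. Depth limited Mcoln1, with 3 to 30 reads.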

Other observations

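Genes that feed or restrain the lysosome, outside the list, are given as values. Of 18 autophagy genes tested, 7 fell and 4 rose in OVX against Sham, 7 rose and 3 fell in PJ and 4 rose and 2 fell in P against OVX, and 1 rose and 1 fell in J. Of all genes, 28.9% fell and 25.3% rose in OVX against Sham, 29.8% rose and 14.6% fell in PJ, 24.2% rose and 15.0% fell in P, and 3.27% rose and 2.79% fell in J. Without Sham 3, 5 autophagy genes fell and 3 rose in OVX, beside 26.3% and 24.8% of all genes. Sqstm1, the autophagy receptor p62, fell by 0.77 in OVX and rose by 0.47 in PJ and 0.39 in P. The ATG8 family split. Map1lc3a, which codes for an LC3 protein of autophagosome membranes, averaged 100 FPKM in PJ, 84.4 in P, 77.1 in J, 41.5 in OVX and 99.8 in Sham, and rose in J against OVX by 0.89 ± 0.15 (SE, adjusted p = 0.0107, limma). Its relative Gabarapl2 averaged 31.5 FPKM in PJ, 35.1 in P, 45.6 in J, 75.5 in OVX and 36.6 in Sham, and fell in J by 0.73 ± 0.20 (adjusted p = 0.0498, limma). Gabarapl1 fell by 2.08 in OVX against Sham and rose by 1.47 in PJ and 1.36 in P against OVX.

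Inhibitors of cathepsins differed among themselves. Cst3 (cystatin C), a secreted inhibitor of cysteine cathepsins, had 1204, 996 and 241 FPKM in PJ, 800, 859 and 703 in P, 234, 249 and 239 in J, 95.8, 103 and 114 in OVX, and 1466, 1047 and 1512 in Sham. It fell by 3.66 in OVX against Sham and rose by 2.66 in PJ and 2.90 in P against OVX, while Serpinb1a, an inhibitor of neutrophil serine proteases, rose by 3.94 in OVX and fell by 2.08 in PJ and 1.91 in P. Cst7 (cystatin F), an inhibitor found in immune cells, averaged 11.6 FPKM in PJ, 12.1 in P, 34.1 in OVX and 3.79 in Sham, and passed in the same 3 comparisons. Neutrophil markers, which summed to 20780 to 24158 FPKM in OVX and 291 to 665 in Sham, moved with Serpinb1a, and their part in it was not tested.

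Of 11 sorting receptors and adaptors, 2 fell in OVX against Sham (Igf2r and Gnptg) and 2 rose in PJ (Gga1 and Igf2r). None passed in P or J (limma, with 1 and 3 at an unadjusted p under 0.05). Without Sham 3, P 2 and PJ 3 together, 4 rose in P, beside 32.1% of all genes. Without Sham 3, none passed in OVX against Sham (adjusted p = 0.0666 and 0.0555 for Igf2r and Gnptg, limma), and Igf2r no longer passed in PJ (0.0541). Igf2r, the large mannose 6-phosphate receptor, averaged 14.0 FPKM in PJ, 8.24 in OVX and 14.6 in Sham.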
